A study of Mus musculus with 93 samples.

Results

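Genes of the cell cycle and of mitosis were followed in mouse cortex across age, Chd8 genotype and early exposure to the pyrethroid insecticide deltamethrin (DM). The 42 genes were taken by name from 24528 genes listed in both deposited tables, with no filter on their level. They code for cyclins and their kinases, transcription factors of the E2F family and FOXM1, proteins that license and copy DNA, enzymes of nucleotide supply, mitotic kinases and checkpoint proteins, spindle and chromosome proteins, and proteins that end mitosis. All 42 varied between libraries in both tables and were tested.

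RNA sequencing of polyA libraries was performed on the cortex of 1 hemisphere from 93 mice. The sires were Chd8V986*/+ and the dams WT C57BL/6J, and the loss-of-function allele leaves 1 intact copy of Chd8, a gene for a chromatin remodeler. From E0 dams were given peanut butter with DM (3 mg/kg) or oil, 1 dose in 3 days. Exposure lasted to collection at postnatal day (PND) 5 or, for the older mice, to PND 22.

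At PND 5 there were 10 DM-exposed and 10 oil-exposed Chd8V986*/+ mice, against 12 DM-exposed and 12 oil-exposed WT mice, of both sexes (23 males and 21 females) and from 13 litters. At 12 months there were 10 DM-exposed Chd8V986*/+ mice with 10 DM-exposed WT littermates, and 9 oil-exposed Chd8V986*/+ mice with 9 oil-exposed WT littermates, all male. At 18 months there were 5 Chd8V986*/+ and 6 WT mice, all male and all untreated. Pups of a litter shared a dam and her exposure, so that DM and oil can be compared only between litters, and genotypes also within them. The main fit held litter as a number and did not pair littermates. A fit with litter as a block, which compares genotypes within litters, is given beside it. The mutation is constitutive, and each library mixes every cell type of the cortex, so fewer cells of a type and less RNA per cell cannot be told apart.

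A dividing cell passes through a gap phase, DNA synthesis, a second gap and mitosis. D and E cyclins with their kinases release E2F factors, which switch on the genes that copy DNA, and later the B-Myb and FOXM1 program switches on the genes of mitosis. In the mouse cortex neurons arise before birth, and around birth the dividing cells are mostly those that give rise to glia and vessels. In the adult few cells divide, among them oligodendrocyte precursors. CHD8 is known as a partner of E2F-driven transcription in dividing human cells.

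Promoters of 34 of the 42 genes were found in the RefSeq table of build GRCm38.p6, which gives 250 bases before and 50 bases after a start, and 3 genes had more than 1 promoter, 37 in all. An E2F site (TTTCCCGC, TTTGGCGC, TTTCGCGC or TTTGCCGC, on either strand) lay in 8 of 37 promoters (21.6%), against 2.26% of all 32851 promoters of the table. The cell cycle homology region (TTTGAA, either strand), through which the mitotic program is known to act, lay in 16 of 37 (43.2%), against 17.9% of all. The CCAAT box (CCAAT, either strand) lay in 29 of 37 (78.4%), against 37.4% of all. E2F sites were found in 4 of 6 genes of licensing and replication with a promoter, and in none of the 8 spindle and chromosome genes. The cell cycle homology region was found in 6 of those 8 and in 1 of the 6. A match of letters is not shown to be a used site. Below are promoters of the genes on which the results turn, written from 5′ to 3′ on the strand of the gene, with matches in capitals. Kif4 (chrX:100625815-100626114, plus strand) differed between genotypes in adults, Top2a (chr11:99024140-99024439, minus strand) fell most with age, and Cdk1 (chr10:69352863-69353162, minus strand) is the kinase of mitosis. Mcm6 (chr1:128359656-128359955, minus strand) fell most among the licensing genes, and Ccne1 (chr7:38107441-38107740, minus strand) was the member with the largest increase.
Kif4: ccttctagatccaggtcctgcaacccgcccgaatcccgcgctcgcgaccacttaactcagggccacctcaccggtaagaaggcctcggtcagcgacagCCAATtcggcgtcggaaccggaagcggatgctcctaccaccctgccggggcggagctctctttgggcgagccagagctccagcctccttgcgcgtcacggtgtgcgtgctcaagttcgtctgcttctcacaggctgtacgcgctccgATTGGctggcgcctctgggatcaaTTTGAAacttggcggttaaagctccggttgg
Top2a: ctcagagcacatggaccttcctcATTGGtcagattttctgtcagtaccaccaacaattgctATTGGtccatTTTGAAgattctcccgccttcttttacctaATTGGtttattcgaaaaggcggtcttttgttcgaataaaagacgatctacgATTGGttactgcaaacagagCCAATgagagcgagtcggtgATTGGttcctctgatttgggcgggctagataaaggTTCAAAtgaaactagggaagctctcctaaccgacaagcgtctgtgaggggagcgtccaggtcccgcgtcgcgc
Cdk1: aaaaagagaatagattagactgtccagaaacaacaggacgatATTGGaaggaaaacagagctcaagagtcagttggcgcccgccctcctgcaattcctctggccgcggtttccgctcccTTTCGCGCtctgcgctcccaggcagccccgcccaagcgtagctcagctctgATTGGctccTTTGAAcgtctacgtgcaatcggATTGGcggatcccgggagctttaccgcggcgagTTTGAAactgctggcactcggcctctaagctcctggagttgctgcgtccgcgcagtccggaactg
Mcm6: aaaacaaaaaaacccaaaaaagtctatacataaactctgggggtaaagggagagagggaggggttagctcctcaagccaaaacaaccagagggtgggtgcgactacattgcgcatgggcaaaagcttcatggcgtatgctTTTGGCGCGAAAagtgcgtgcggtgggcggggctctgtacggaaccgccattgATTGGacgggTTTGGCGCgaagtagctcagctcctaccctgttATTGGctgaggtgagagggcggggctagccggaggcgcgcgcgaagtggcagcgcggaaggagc
Ccne1: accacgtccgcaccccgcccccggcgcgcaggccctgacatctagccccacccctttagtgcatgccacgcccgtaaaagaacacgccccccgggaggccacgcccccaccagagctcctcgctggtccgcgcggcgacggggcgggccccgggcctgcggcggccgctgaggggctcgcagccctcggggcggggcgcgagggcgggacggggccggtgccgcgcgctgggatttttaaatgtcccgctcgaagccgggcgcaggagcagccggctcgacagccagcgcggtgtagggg
The Kif4 promoter held 2 CCAAT boxes and 1 cell cycle homology region, which begins 19 bases after the RefSeq start at 100626065. GENCODE M21 begins the gene 328 bases upstream of that start, so this whole window lies inside the Kif4 gene of that annotation, and it is not shown which start the cortex uses. For the other 4 genes the starts of the 2 annotations lay within 44 bases of each other. Top2a held 6 CCAAT boxes and 2 cell cycle homology regions. Cdk1 held all 3 kinds. Mcm6 held 3 E2F matches, of which 2 overlap on opposite strands, and no cell cycle homology region. Ccne1 held no match to any of these words.

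Values are in log2 units after the variance-stabilizing transformation (VST) made by the authors. In that scale a gene with almost no reads sits near a floor, and differences close to it are flattened. The deposited values carry a removal of technical terms that moved the level of each gene. Values by mouse are therefore given after the fitted terms for batch, sex, dissector and litter number were taken out, relative to the mean of oil-exposed WT mice. That mean is of PND 5 where ages are compared, and of the same age where genotypes or exposures are compared. Adjusted p values are from limma over all 20160 varying genes (18657 at 18 months), and a gene is called at an adjusted p under 0.05. Chd8 was lower in mutants in each of the 5 genotype comparisons, by −0.48 to −0.69 log2 units, and lay below the WT littermate in 10 of 10 DM litters and in 9 of 9 oil litters at 12 months. At 18 months all 10 neuron markers lay at least 4.64 log2 units above the floor and choroid plexus markers at most 1.06 above it.

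The first question was how the genes differ between adult and neonatal cortex. All 42 were called, 37 lower and 5 higher at 12 months than at PND 5. Of all genes 71.4% were called, 35.3% lower and 36.1% higher. The median difference of the 42 was −1.82 log2 units, against 0.003 over all genes tested. In adjusted values all 38 mice of 12 months lay below all 44 mice of PND 5 for 36 members and above them for Ccne1, and the ages overlapped for Ccnd1, Ccne2, E2f1, E2f3 and Mcm4. How many of all genes were separated in this way was not counted, so nothing particular to the 42 is read from it. The separation also depends on the fitted technical terms, which differ between the ages, and the differences without them are given below.

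**Figure D1:**
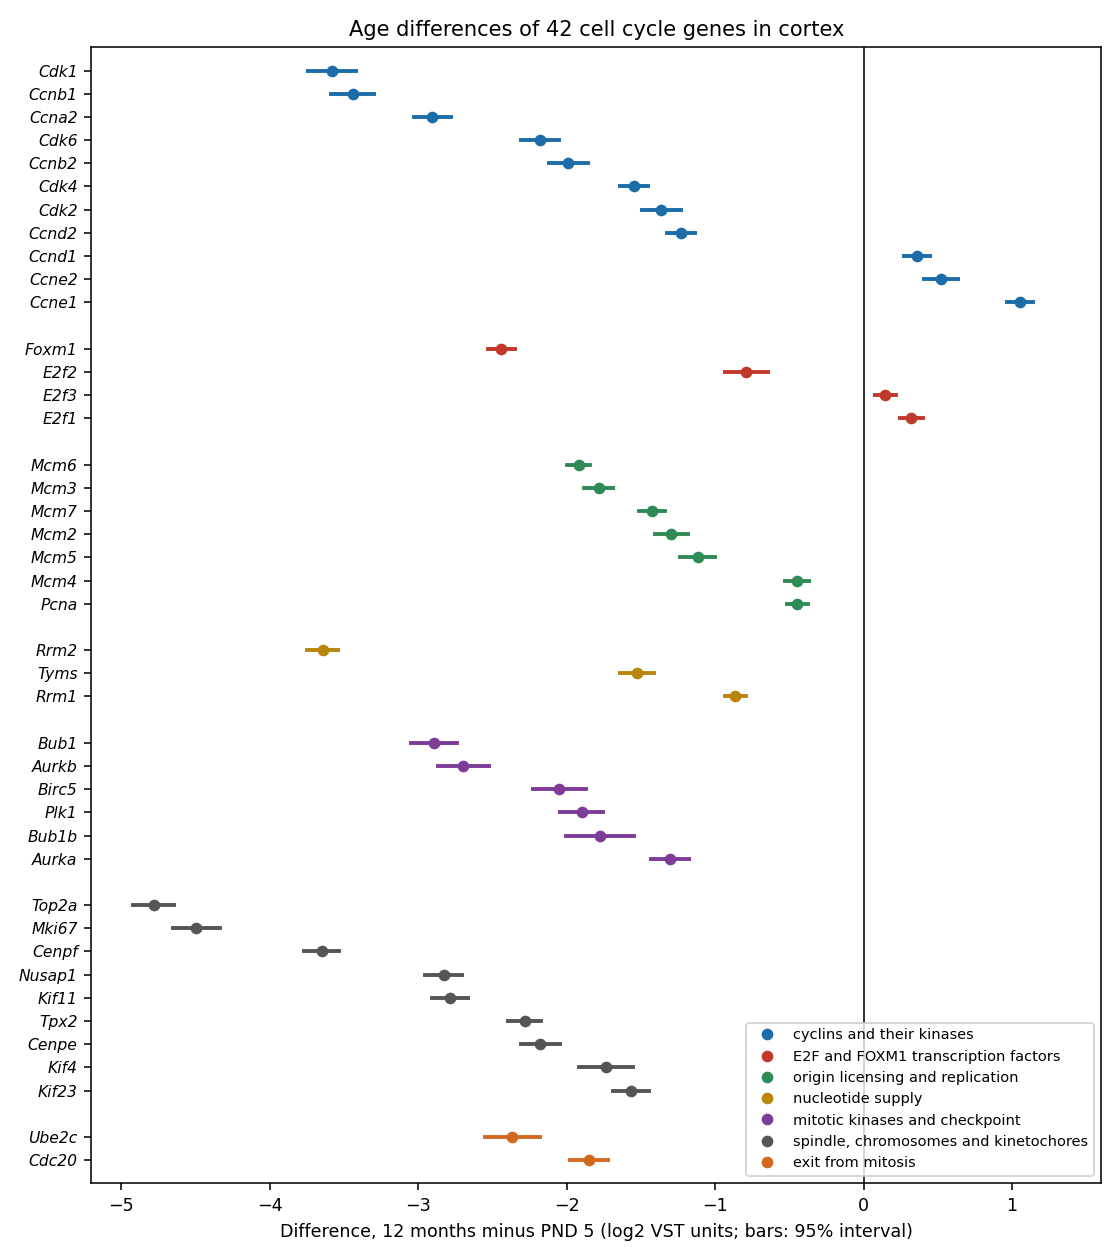
Difference between 12 months and PND 5 in log2 VST units (x axis) for each of the 42 genes (rows, grouped and colored by role), as points with 95% intervals. Only Ccnd1, Ccne1, Ccne2, E2f1 and E2f3 lie to the right of 0, and Top2a (−4.78) and Mki67 (−4.49) lie farthest to the left.

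Spindle and chromosome genes fell most as a group, with 9 of 9 called lower and a median of −2.78. Top2a, which codes for the topoisomerase that untangles replicated DNA, ranged from −5.28 to −4.34 (median −4.88) at 12 months, against −0.35 to 0.15 (median −0.08) at PND 5. Its difference was −4.78 ± 0.07 (SE), a 27.5-fold lower value (adjusted p = 1.92e-64). Mki67, the gene of the proliferation antigen Ki-67, ranged from −5.07 to −3.85 (median −4.50) at 12 months, against −0.34 to 0.23 (median −0.03) at PND 5. It fell by 4.49 ± 0.08 log2 units, and Cenpf, a kinetochore protein, fell by 3.65 ± 0.06, with values from −4.15 to −3.26 (median −3.68) at 12 months, against −0.32 to 0.27 (median −0.03) at PND 5. For each of the 3 genes all adults lay below all neonates. The smallest falls of this group were those of the motor proteins Kif4 (−1.74 ± 0.09) and Kif23 (−1.57 ± 0.06). Kif4 ranged from −2.44 to −0.88 (median −1.95) at 12 months, against −0.50 to 0.26 (median −0.12) at PND 5, so that its highest adult came closer to the neonates than the adults of Top2a did.

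Mitotic kinases and checkpoint genes (6 of 6 lower, median −1.97) and the genes of exit from mitosis (2 of 2 lower, median −2.11) followed. Among them Bub1, a checkpoint kinase, fell by 2.89 ± 0.08 and Aurka, the kinase of spindle poles, fell by 1.30 ± 0.07. Plk1, a kinase of mitotic entry, ranged from −2.24 to −1.37 (median −1.86) at 12 months, against −0.26 to 0.34 (median 0.05) at PND 5, and its difference was −1.90 ± 0.07 (adjusted p = 1.34e-36). Ube2c, which marks mitotic proteins for destruction, fell by 2.36 ± 0.09 and Cdc20, which activates the same machinery, fell by 1.85 ± 0.07.

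The cyclins and kinases did not all move one way. Cdk1 had the largest fall, followed by the B and A cyclins Ccnb1 and Ccna2. Cdk1 ranged from −4.51 to −3.27 (median −3.62) at 12 months, against −0.46 to 0.22 (median −0.02) at PND 5, a difference of −3.58 ± 0.08 (11.9-fold lower, adjusted p = 4.07e-51). Ccnb1 fell by 3.44 ± 0.07, Ccna2 fell by 2.90 ± 0.06 and Ccnb2 fell by 1.99 ± 0.07. The kinases of the earlier phases fell less than Cdk1, with differences of −2.18 ± 0.07 for Cdk6, −1.55 ± 0.05 for Cdk4 and −1.36 ± 0.07 for Cdk2. D cyclins went apart. Ccnd2 ranged from −1.59 to −0.88 (median −1.29) at 12 months, against −0.24 to 0.14 (median −0.04) at PND 5, and fell by 1.23 ± 0.05. Ccnd1 ranged from 0.06 to 0.50 (median 0.29) at 12 months, against −0.27 to 0.20 (median −0.02) at PND 5, and rose by 0.36 ± 0.05 (adjusted p = 4.85e-11). Both E cyclins, which open DNA synthesis with Cdk2, rose. Ccne1 ranged from 0.91 to 1.32 (median 1.13) at 12 months, against −0.26 to 0.31 (median 0.07) at PND 5, a rise of 1.06 ± 0.04 (2.08-fold, adjusted p = 1.23e-34), and Ccne2 rose by 0.52 ± 0.06.

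**Figure D2:**
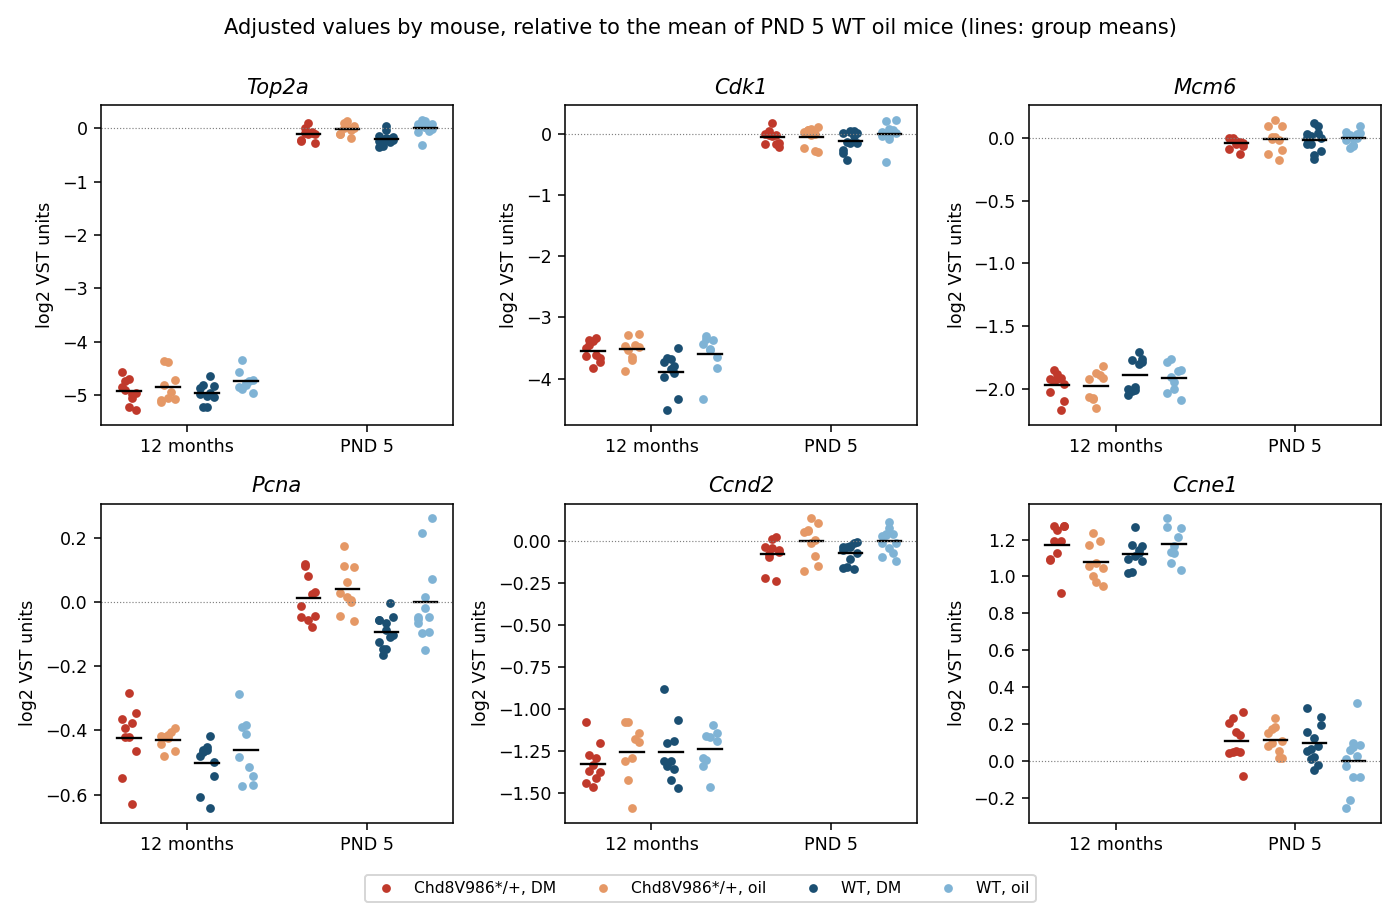
Adjusted values of 6 genes in each mouse (points, in log2 VST units relative to the mean of oil-exposed WT mice of PND 5) at 12 months and at PND 5, with group means as lines and colors for genotype and exposure. The 12 month mice lie below the PND 5 mice for Top2a, Cdk1, Mcm6, Pcna and Ccnd2 and above them for Ccne1, with the 4 groups of an age close together.

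The transcription factors were divided too. Foxm1, which drives mitotic genes, ranged from −2.60 to −2.06 (median −2.40) at 12 months, against −0.27 to 0.30 (median 0.07) at PND 5, and fell by 2.44 ± 0.05 (5.42-fold). E2f2 fell by 0.79 ± 0.07. E2f1 ranged from 0.13 to 0.53 (median 0.36) at 12 months, against −0.33 to 0.21 (median 0.03) at PND 5, and rose by 0.32 ± 0.04 (adjusted p = 2.64e-11). E2f3 ranged from −0.09 to 0.30 (median 0.13) at 12 months, against −0.25 to 0.17 (median 0.00) at PND 5, and rose by 0.15 ± 0.04 (adjusted p = 1.32e-04), the smallest change of the 42, with overlapping ages.

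Genes of origin licensing and replication all fell (7 of 7, median −1.30), by unequal amounts. The MCM proteins form a helicase of 6 different subunits, all of them among the members. Mcm6 fell by 1.92 ± 0.04 and Mcm3 fell by 1.78 ± 0.05, whereas Mcm4 fell by 0.45 ± 0.04. Mcm2 ranged from −1.68 to −0.86 (median −1.22) at 12 months, against −0.23 to 0.27 (median 0.07) at PND 5, a difference of −1.30 ± 0.06. Pcna, the sliding clamp of DNA polymerases, which also serves DNA repair, ranged from −0.64 to −0.28 (median −0.45) at 12 months, against −0.17 to 0.26 (median −0.04) at PND 5, and fell by 0.44 ± 0.03 (1.36-fold, adjusted p = 1.19e-19). In nucleotide supply, the subunits of ribonucleotide reductase differed. Rrm2, the subunit that is made in S phase, ranged from −4.15 to −3.43 (median −3.72) at 12 months, against −0.31 to 0.17 (median −0.05) at PND 5, and fell by 3.64 ± 0.05 (12.5-fold). Rrm1, its partner, fell by 0.86 ± 0.04, and Tyms, the thymidylate synthase, fell by 1.52 ± 0.06.

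The same was asked of 118 other cell cycle genes that were tested. At 12 months 28 of 33 further replication genes and 49 of 55 further mitotic genes were called lower, with 1 and 4 called higher. Of all genes 71.4% were called, 35.3% lower and 36.1% higher, and the counts of brakes and markers below stand beside the same shares. Pbk, a mitotic kinase, fell by 3.38 ± 0.08, Prc1, which bundles spindle microtubules, fell by 3.38 ± 0.06, and Uhrf1, which carries DNA methylation through replication, fell by 3.26 ± 0.07. Of 30 genes that brake the cycle 18 were called lower and 7 higher, among them Wee1, the kinase that restrains Cdk1 (2.12 ± 0.04), and Btg2, an antiproliferative gene (1.59 ± 0.18). The largest rise was that of Anln, for a septin-binding protein of the cleavage furrow that myelin also holds (2.28 ± 0.06). Myelin markers rose in 10 of 10 genes (median 5.03), neural progenitor markers fell in 12 of 14 (median −0.77) and immature neuron markers in 7 of 8 (median −3.80). Microglia markers rose in 10 of 10 (median 1.77), astrocyte markers in 8 of 10 (median 0.96) and neuron markers in 8 of 10 (median 1.52). Oligodendrocyte precursor markers were mixed, with 6 of 10 lower and 3 higher (median −0.60), among them Pdgfra (−1.16 ± 0.04) and Neu4 (1.46 ± 0.08). Their part in the differences of the 42 genes was not tested.

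When the groups were fitted without technical terms, the age differences were smaller, with a median of −0.78 and a range from −2.04 to 0.44, and the technical terms removed from the deposited values (dissector, sex, litter and batch) themselves differ between the ages. The directions were kept, and 41 of 42 members were still called, with E2f3 no longer among them (adjusted p = 0.097).

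At 18 months, in a table of its own, the floor stood at 7.38, against 3.53 in the table of PND 5 and 12 months. Sizes of differences are therefore not compared between the tables. Ube2c averaged 0.11 log2 units above the floor, Aurkb 0.14, Ccnb1 0.16, Cdk1 0.18 and Bub1 0.21. Foxm1 averaged 0.63 and Kif4 0.73 above it, whereas Ccnd2 averaged 4.14, Ccnd1 2.99, E2f3 2.91 and Pcna 2.80 above it. These distances are not per length of transcript and give no order of abundance. They show which genes had little room for a difference on this scale. At 12 months the littermates of 1 of 19 litters had the identical value for Ube2c, and no other member had such a litter. The variation between mice of a group was larger in adults, with a median SD over the 42 genes of 0.18 at 12 months, against 0.12 at PND 5. Over all genes it was 0.15 at 12 months, against 0.14 at PND 5. Bub1b varied most among adults (SD 0.42, against 0.11 at PND 5) and Pcna least (0.08, against 0.09). Cdk1 (0.26, against 0.15), Bub1 (0.25, against 0.14) and Kif4 (0.28, against 0.18) also varied more in adults, and Foxm1 did not (0.11 at each age).

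The second question was whether Chd8V986*/+ cortex differs from WT at PND 5. None of the 42 was called in DM-exposed mice (0.174% of all genes called), nor in oil-exposed mice (0.422%). At an unadjusted p under 0.05 there were 3 members in DM-exposed and 3 in oil-exposed mice, beside 5.9% of all genes with DM and 6.93% with oil. The 42 differences ranged from −0.12 to 0.11 in DM-exposed mice and from −0.11 to 0.14 in oil-exposed mice. The medians were 0.04 in DM-exposed mice, with 31 of 42 differences above 0, and 0.0002 in oil-exposed mice, with 22 of 42 above 0, against −0.003 and −0.001 over all genes. In DM-exposed mice the smallest p values were those of E2f3 (−0.12 ± 0.04, adjusted p = 0.407), Rrm1 (0.11 ± 0.04, adjusted p = 0.553) and Pcna (0.11 ± 0.04, adjusted p = 0.554). In oil-exposed mice they were those of Rrm1 (0.14 ± 0.04, adjusted p = 0.123), Ccne1 (0.11 ± 0.05, adjusted p = 0.568) and Ccnd1 (−0.10 ± 0.05, adjusted p = 0.703). With litter as a block, Rrm1 was called in oil-exposed mice (0.13 ± 0.04, adjusted p = 0.0469, with 1.03% of all genes called). Of the other cell cycle genes none was called in DM-exposed mice and Wee1 was called in oil-exposed mice (0.22 ± 0.04, adjusted p = 0.0027).

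At 12 months the same comparison gave 3 called members in DM-exposed mice, all higher (2.62% of all genes called, 1.44% higher), and 2 in oil-exposed mice, both higher (1.32% called, 0.506% higher). Kif4 was called under both exposures. Medians over the 42 genes were 0.04 in DM-exposed and 0.01 in oil-exposed mice, against −0.003 and 0.00 over all genes, so that most members lay near 0 while single genes stood out.

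**Figure D3:**
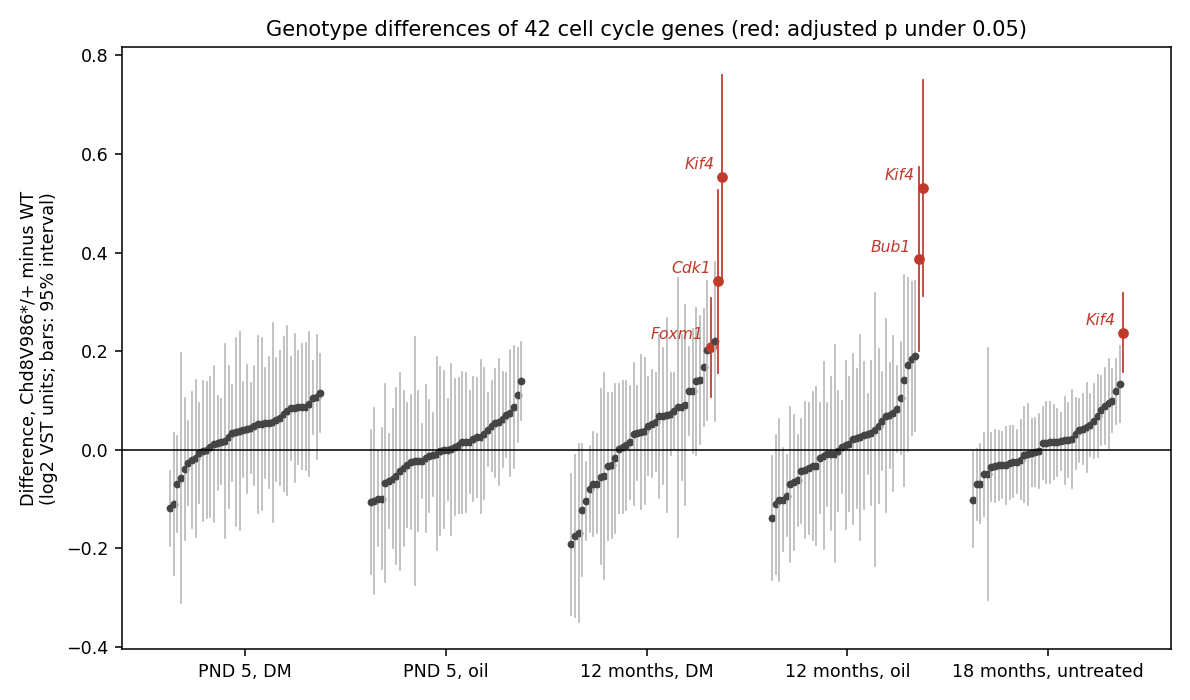
Difference between Chd8V986*/+ and WT mice in log2 VST units (y axis) for each of the 42 genes, sorted within 5 comparisons (x axis), as points with 95% intervals. No gene is red at PND 5, Kif4 is red in the 3 adult comparisons at 0.55, 0.53 and 0.24, and Cdk1, Foxm1 and Bub1 are red in 1 each.

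Kif4 codes for a chromosome-bound motor that helps to condense chromosomes and to build the central spindle. In DM-exposed mice of 12 months its values ranged from 0.14 to 0.90 (median 0.58, n = 10) in Chd8V986*/+ mice, against −0.21 to 0.26 (median 0.06, n = 10) in WT mice. In oil-exposed mice they ranged from −0.005 to 1.23 (median 0.46, n = 9) in Chd8V986*/+ mice, against −0.33 to 0.33 (median −0.08, n = 9) in WT mice. The groups overlapped, with the mutants shifted upward under both exposures. The difference was 0.55 ± 0.11 with DM (adjusted p = 9.43e-04) and 0.53 ± 0.11 with oil (adjusted p = 0.00724), 1.47-fold and 1.45-fold. Littermates show it without a model. The mutant exceeded its WT littermate in 9 of 10 DM litters (−0.01 to 0.91, median 0.63) and in 9 of 9 oil litters (0.08 to 1.52, median 0.53). By batch the mean littermate difference was 0.89, 0.28, 0.48 and 0.55 in batches 1 to 4, above 0 in each. The call with DM was lost without batch 3 (0.47 ± 0.13, adjusted p = 0.0605), and that with oil without batch 4 (0.52 ± 0.13, adjusted p = 0.078). Both were lost without technical terms, where the differences were the same with larger errors (0.55 ± 0.21, adjusted p = 0.43, with DM and 0.53 ± 0.22, adjusted p = 0.623, with oil). The deposited values had these terms removed in a model without the groups. A fit without the terms can therefore hold spread from that removal within the groups. Calls lost in such a fit, here and below, cannot tell how firm a call is.

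The Kif4 difference was not seen at PND 5. Values ranged from −0.50 to 0.16 (median −0.13, n = 10) in DM-exposed Chd8V986*/+ mice, against −0.37 to −0.03 (median −0.19, n = 12) in DM-exposed WT mice. In oil-exposed mice they ranged from −0.24 to 0.26 (median −0.09, n = 10) in Chd8V986*/+ mice, against −0.36 to 0.26 (median 0.03, n = 12) in WT mice. The groups overlapped under both exposures, and the differences were 0.04 ± 0.10 with DM and −0.04 ± 0.10 with oil (adjusted p = 1 in each). The change of the genotype difference from PND 5 to 12 months was 0.54 ± 0.11 (adjusted p = 0.0112, interaction term in limma, 0.248% of all genes called, 0.0595% higher). Kif4 was the 1 member of the 42 called for this interaction, and the call was lost without batch 4 (0.54 ± 0.12, adjusted p = 0.0634), in males (0.51 ± 0.14, adjusted p = 0.249) and without technical terms (0.65 ± 0.21, adjusted p = 0.816).

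At 18 months, in untreated mice, all 5 Chd8V986*/+ values of Kif4 (8.24, 8.19, 8.34, 8.23 and 8.19 as deposited) lay above all 6 WT values (7.94, 8.02, 8.00, 8.07, 8.07 and 7.91). The difference was 0.24 ± 0.04 (adjusted p = 0.0392), and Kif4 was the 1 called member (0.107% of all genes called, 0.0482% higher). This call was lost when any 1 of the 11 libraries was left out (0.21 to 0.25, adjusted p = 0.0962 to 0.191) and with litter as a block (0.25 ± 0.05, adjusted p = 0.313). That block called 0 of all 18657 genes. In the main fit the smallest unadjusted p values after that of Kif4 were those of Rrm1 (0.12 ± 0.03, adjusted p = 0.189), Mcm4 (0.13 ± 0.04, adjusted p = 0.198) and Cdk1 (0.10 ± 0.03, adjusted p = 0.252). The median of the 42 was 0.01, against 0.0002 over all genes.

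**Figure D4:**
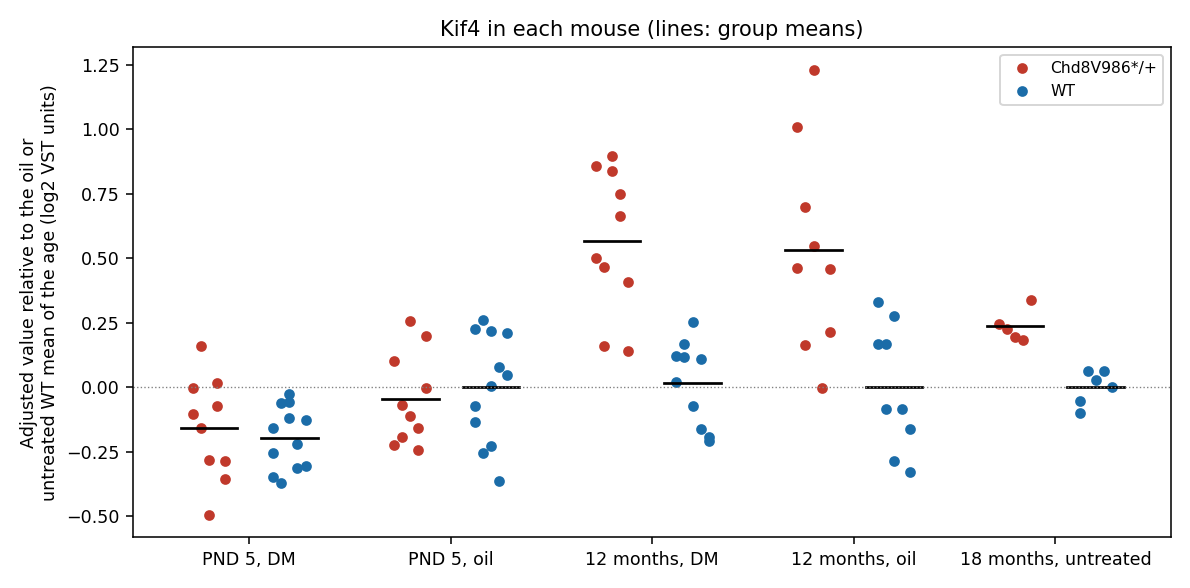
Kif4 in each mouse (points; y axis in log2 VST units relative to the oil or untreated WT mean of the same age, lines for group means) for Chd8V986*/+ and WT mice in 5 settings of age and exposure (x axis). Mutants and WT mice overlap at PND 5, mutants are shifted upward at 12 months, and all 5 mutants lie above all 6 WT mice at 18 months. The 18 month values have a scale of their own, so sizes are not compared with the other ages.

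Kif4 lies on chromosome X from 100625737 to 100727214 (mm10, GENCODE M21, plus strand), and its start overlaps Pdzd11 on the minus strand. The libraries were stranded, but whether quantification used the strand is not given in the sources used here. Pdzd11 differed between genotypes by 0.02 ± 0.05 with DM and 0.11 ± 0.05 with oil at 12 months and by 0.05 ± 0.03 at 18 months (adjusted p = 0.894, 0.24 and 0.625). Of the next genes on the chromosome, Gdpd2 differed by 0.14 ± 0.08 and 0.16 ± 0.09, and Dlg3 by −0.12 ± 0.06 and −0.15 ± 0.07, with DM and with oil at 12 months, none of them called. The Kif4-ps pseudogene did not vary in the table of PND 5 and 12 months. In all, 18 of the 42 genes overlap an annotated gene on the other strand.

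Bub1, a kinase of the spindle checkpoint, was called in oil-exposed mice alone. Its values ranged from 0.12 to 0.67 (median 0.44, n = 9) in Chd8V986*/+ mice, against −0.54 to 0.38 (median 0.03, n = 9) in WT mice, a difference of 0.39 ± 0.10 (adjusted p = 0.025). The groups overlapped, and the mutant was higher in 7 of 9 litters (−0.06 to 1.11). In DM-exposed mice values ranged from −0.53 to 0.38 (median 0.16, n = 10) in Chd8V986*/+ mice, against −0.10 to 0.34 (median 0.10, n = 10) in WT mice, a difference of −0.05 ± 0.09, and the mutant was higher in 7 of 10 litters (−0.78 to 0.31). The genotype difference was lower by 0.44 ± 0.13 with DM than with oil, which was not called (adjusted p = 1). The call with oil was lost without any of 4 libraries, Chd8V986*/+ replicates 2 and 9 and WT replicates 6 and 9 (adjusted p = 0.0603 to 0.0711), and without batch 1, 2 or 4 (0.27 to 0.47, adjusted p = 0.0505 to 0.267). It was also lost, at the same difference, when males (adjusted p = 0.0577) or the mice of 12 months (adjusted p = 0.0558) were fitted alone and without technical terms (± 0.36, adjusted p = 1). At 18 months the difference of Bub1 was −0.07, close to the floor.

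Cdk1 was called in DM-exposed mice of 12 months. Its values ranged from −0.23 to 0.25 (median 0.03, n = 10) in Chd8V986*/+ mice, against −0.92 to 0.09 (median −0.23, n = 10) in WT mice, a difference of 0.34 ± 0.09 (adjusted p = 0.0324). In oil-exposed mice they ranged from −0.28 to 0.32 (median 0.11, n = 9) in Chd8V986*/+ mice, against −0.74 to 0.29 (median 0.07, n = 9) in WT mice. Mutants and WT mice overlapped under both exposures, with the lowest value of each exposure in a WT mouse. The mutant was higher in 8 of 10 DM litters (−0.15 to 1.14) and in 4 of 9 oil litters (−0.19 to 0.56). The call was lost without any of 8 libraries, Chd8V986*/+ replicates 1, 4, 5, 7 and 9 and WT replicates 1, 4 and 8 (adjusted p = 0.0503 to 0.108), and without any 1 of the 4 batches (0.30 to 0.39, adjusted p = 0.0655 to 0.187). It was also lost, at the same difference, when males (adjusted p = 0.0592) or the mice of 12 months (adjusted p = 0.0832) were fitted alone and without technical terms (± 0.41, adjusted p = 1).

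Foxm1, the transcription factor of the mitotic program, was called in DM-exposed mice as well. Values ranged from −0.06 to 0.35 (median 0.12, n = 10) in Chd8V986*/+ mice, against −0.19 to 0.08 (median −0.12, n = 10) in WT mice, a difference of 0.21 ± 0.05 (adjusted p = 0.0151). The mutant was higher in 9 of 10 DM litters (−0.12 to 0.47). In oil-exposed mice Foxm1 ranged from −0.10 to 0.20 (median 0.04, n = 9) in Chd8V986*/+ mice, against −0.18 to 0.17 (median −0.03, n = 9) in WT mice, with a difference of 0.07 ± 0.05, higher in 6 of 9 litters. Leaving out any 1 library kept the call with DM (adjusted p = 0.00681 to 0.0451), which was lost without batch 2 (0.19 ± 0.06, adjusted p = 0.146) or batch 3 (0.20 ± 0.06, adjusted p = 0.0784) and without technical terms (0.21 ± 0.28, adjusted p = 1).

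**Figure D5:**
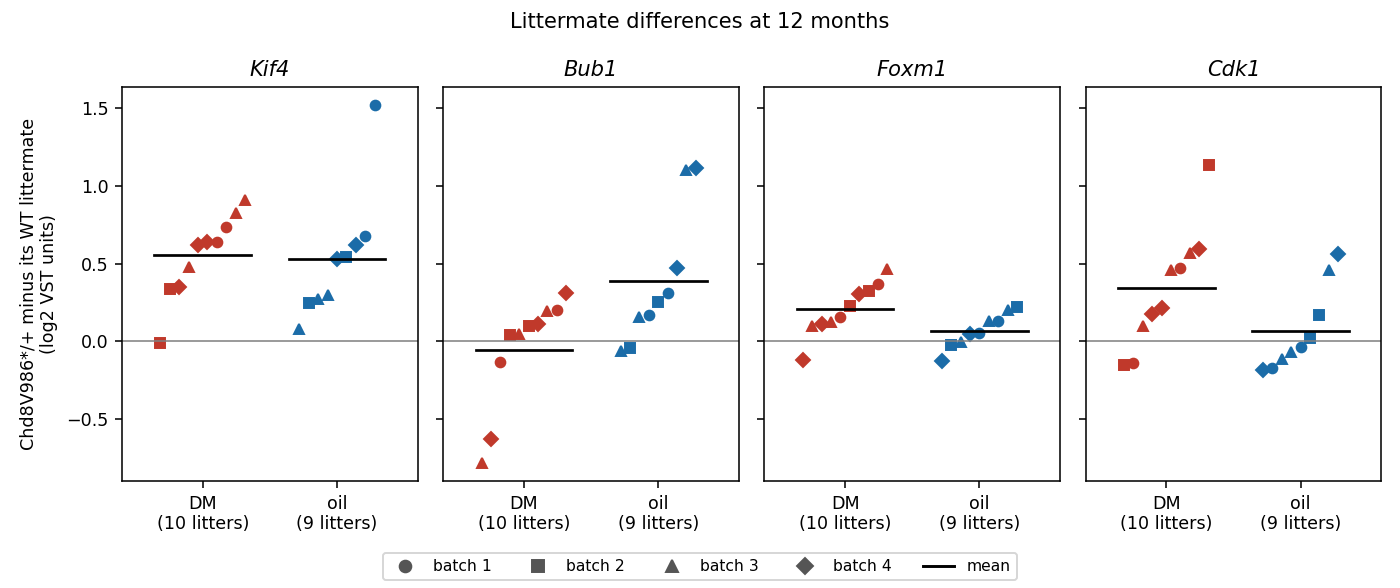
Difference between a Chd8V986*/+ mouse and its WT littermate at 12 months in log2 VST units (y axis) for 4 genes, with 1 point per litter, symbols for batch and lines for the mean of DM litters and oil litters (x axis). Kif4 lies above 0 in 18 of 19 litters, and for Bub1, Foxm1 and Cdk1 some litters of either exposure lie below 0.

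The labels name the litters, so genotype could also be compared with litter as a block. With DM the block called 9 members, with 10.6% of all genes called. Kif4, Foxm1, Cdk1, E2f1 (0.12 ± 0.04), Rrm2 (0.17 ± 0.06), Ccnb1 (0.22 ± 0.07) and Kif11 (0.20 ± 0.07) were higher, and E2f3 (−0.10 ± 0.03) and Ccna2 (−0.19 ± 0.06) lower, at adjusted p values from 6.8e-06 to 0.05 (the highest lies under the threshold before rounding). With oil it called 3 members, with 11.3% of all genes called. Kif4 and Bub1 were higher, and E2f3 was lower (−0.09 ± 0.03, adjusted p = 0.0334). These calls are read against that background, and nothing particular to the 42 genes is read from them.

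Other cell cycle genes were called at 12 months in small numbers. With DM there were 7 of 118, of which 5 were higher (beside 2.62% of all genes). Among them were Pold1, a DNA polymerase subunit (0.47 ± 0.09, adjusted p = 8.04e-04), Tacc3 (0.31 ± 0.06), Racgap1 (0.17 ± 0.04) and Cenph (0.32 ± 0.08), which serve the spindle, the central spindle and the kinetochore. Cks1b, which binds cyclin-dependent kinases, was lower (−0.34 ± 0.08). With oil there were 4 of 118 (beside 1.32% of all genes), with Kif22 (0.30 ± 0.08), Hjurp (0.26 ± 0.07) and Cdc45 (0.29 ± 0.08) higher. Cdkn1b, the gene of the kinase inhibitor p27, was lower under both exposures (−0.15 ± 0.04 with DM, adjusted p = 0.0356, and −0.22 ± 0.05 with oil, adjusted p = 0.00689). At 18 months Hjurp, a chaperone of the centromere histone, was called (0.23 ± 0.04, adjusted p = 0.0467), and was not with litter as a block (adjusted p = 0.313), which called no gene. Smc4, a condensin subunit, was called for the interaction of genotype with age (0.22 ± 0.05, adjusted p = 0.0373).

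Cell type markers were read beside these calls. Neural progenitor markers were called in 0 of 14 and oligodendrocyte precursor markers in 0 of 10 in each of the 3 adult genotype comparisons. Of all genes 2.62% were called with DM and 1.32% with oil at 12 months, and 0.107% at 18 months. Lists this short would hold few calls at those shares, so the counts do not show that these cells are unchanged. Choroid plexus markers had a median of −0.45 in oil-exposed mice of 12 months (−1.09 to −0.14, 0 of 6 called) and blood cell markers of 0.16 in DM-exposed mice (1 of 7 called). Their part in the differences of Kif4, Bub1, Cdk1 and Foxm1 was not tested.

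The third question was whether early DM changed the genes. These comparisons share mice with those of genotype. At PND 5 no member was called in Chd8V986*/+ mice (1.21% of all genes called) and 1 in WT mice (5.8% called, 2.49% lower). Rrm2, the S phase subunit of ribonucleotide reductase, ranged from −0.31 to −0.009 (median −0.20, n = 12) in DM-exposed WT mice, against −0.28 to 0.17 (median −0.03, n = 12) in oil-exposed WT mice. The groups overlapped, and the difference was −0.19 ± 0.06 (adjusted p = 0.04). In Chd8V986*/+ mice Rrm2 ranged from −0.26 to 0.06 (median −0.11, n = 10) with DM, against −0.27 to 0.15 (median 0.02, n = 10) with oil, a difference of −0.09 ± 0.06 (adjusted p = 0.557). The median of the 42 genes was −0.06 in WT and −0.03 in Chd8V986*/+ mice, with 29 of 42 differences below 0 in each, against −0.001 and −0.004 over all genes. Top2a (−0.20 ± 0.08, adjusted p = 0.106) and Pcna (−0.09 ± 0.04, adjusted p = 0.133) had the next smallest p values in WT mice. In Chd8V986*/+ mice those of Cenpf (−0.14 ± 0.07, adjusted p = 0.312), Mcm2 (0.13 ± 0.07, adjusted p = 0.333) and Rrm1 (−0.07 ± 0.04, adjusted p = 0.473) were smallest.

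The Rrm2 call did not hold when litter entered as a random effect (−0.18 ± 0.07, adjusted p = 0.174, with 0.65% of all genes called). Without technical terms its difference was 0.45 ± 0.37, of opposite sign and not called (adjusted p = 0.559). DM-exposed and oil-exposed mice of PND 5 also differed in litter and dissector, terms that had been removed in a model without the groups. The sign in that fit can therefore not be read as one of DM. The Rrm2 call was also lost without any of 12 of the 24 libraries (adjusted p = 0.051 to 0.0979). These are replicates 4 and 5 of the DM females, 1, 2, 3 and 5 of the DM males, 2, 4 and 5 of the oil females and 3, 4 and 5 of the oil males. In the same WT mice 7 of 8 meningeal fibroblast markers (median 1.32) and 6 of 10 mural cell markers (median 0.25) were higher after DM. Of all 20160 genes 668 were called higher in that fit. The markers were not read in the fit with litter as a random effect, and their part in the Rrm2 difference was not tested. Of other cell cycle genes Kif18a (−0.28 ± 0.07, adjusted p = 0.0118), Cdkn1b (−0.14 ± 0.04, adjusted p = 0.0268) and Dut (−0.14 ± 0.04, adjusted p = 0.0419) were lower in WT mice, and Pkmyt1, a kinase that restrains Cdk1, was higher in Chd8V986*/+ mice (0.30 ± 0.08, adjusted p = 0.0469). None of these 4 calls held with litter as a random effect (adjusted p = 0.074 for Kif18a, 0.136 for Cdkn1b, 0.156 for Dut and 0.148 for Pkmyt1), a fit that called 4 genes of all in Chd8V986*/+ mice, against 244 without it, and 131 in WT mice, against 1170 without it.

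At 12 months, long after exposure had ended, no member was called for DM against oil in Chd8V986*/+ mice (0.00496% of all genes, 1 gene) or in WT mice (0 genes). At an unadjusted p under 0.05 there were 2 members and 725 genes in Chd8V986*/+ mice, and 6 members and 792 genes in WT mice. In Chd8V986*/+ mice Cenpf (−0.27 ± 0.07, adjusted p = 0.4), Bub1 (−0.33 ± 0.09, adjusted p = 0.492) and Aurka (−0.15 ± 0.08, adjusted p = 1) had the smallest p values. In WT mice they were Mcm2 (−0.21 ± 0.07, adjusted p = 0.844), Cdk1 (−0.30 ± 0.10, adjusted p = 0.863) and Rrm2 (−0.19 ± 0.06, adjusted p = 0.863). None of the 42 genes had a genotype difference that was called as differing between DM and oil, at PND 5 or at 12 months, where 1 and 0 of all genes were called. The unadjusted p was under 0.05 for 0 members at PND 5 (beside 2.26% of all genes) and, at 12 months (beside 3.18% of all genes), for Rrm2 (0.31 ± 0.09), Bub1 (−0.44 ± 0.13) and Ccne1 (0.15 ± 0.07).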

How the data were processed

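RNA of 93 cortex libraries was sequenced as stranded polyA libraries. The authors trimmed reads with cutadapt 1.12, used STAR 2.5.2b (mm10) and Salmon, and deposited log2 values after the variance-stabilizing transformation of DESeq2 in 2 tables, 1 for PND 5 and 12 months (82 libraries) and 1 for 18 months (11 libraries), with technical terms removed. No counts were used, so the depth of each library is unknown and no counting interval is given. The number of mice limits the precision.

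Each table was fitted over all varying genes with limma 3.58.1 (R 4.3.3), with a trended variance, no filter on the mean and Benjamini-Hochberg adjustment. The model of PND 5 and 12 months held 8 groups, batch, sex, dissector and litter number, and that of 18 months held genotype and litter rank. Differences are Chd8V986*/+ minus WT, DM minus oil and 12 months minus PND 5, folds are 2 to the power of the difference, and all tests are two-sided. The scripts were tested on simulated data. The 42 genes and all lists were chosen with earlier results of these data known. Any of the 42 genes could be named, with values by group for those called between genotypes or exposures, for a set of genes in the age comparison and for the 3 largest and 3 smallest age differences. Other cell cycle genes were named if called (at most 6 per comparison) or among the 3 largest age differences in each direction. The labels name litters, and littermates had a median residual correlation of 0.12 (74 pairs), against −0.011 in 3247 other pairs, so litter was also fitted as a block. Other filters, variance settings, sample weights, technical terms, sexes, batches and libraries left out were tried. Promoters came from RefSeq (GRCm38.p6) and gene positions from GENCODE M21.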

Additional observations from a re-analysis of the deposited data

Results flagged for a closer look

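The genotype difference of Kif4 changed between ages. It was larger by 0.545 log2 units at 12 months than at PND 5 (SE 0.106, n = 38 and 44 mice, adjusted p = 0.0112, interaction term in limma). Of 14 groups tested for Kif4, Bub1, Cdk1 and Foxm1 together, none held a value set far from the others, where chance gives about 1 in 20. The WT groups of PND 5, with 12 mice each, were too large for this test and were left out.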

How the results depend on the processing

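The age result kept 38 to 42 called members under every alternative run, of fewer tested members under filters on the mean. Counts of called members moved by over 1.5 times elsewhere. Without technical terms there were 0 for Kif4 and the other members in both genotype comparisons of 12 months, in the interaction of genotype with age and for DM in WT mice of PND 5, where Rrm2 reversed to 0.45. As the terms had been removed in a model without the groups, this fit cannot tell how firm those calls are. With oil at 12 months there was 1 in males, 1 without batch 1, 1 without batch 2 and 0 without batch 4. With DM there was 1 without batch 2 and 1 without batch 3, the latter none of Kif4, Foxm1 and Cdk1. The interaction gave 0 in males and 0 without batch 4. For DM in WT mice of PND 5 there were 2 with sample weights and 0 with batch as a number, in males, or without batch 1, 2 or 3. The replicate block by litter gave 1 in oil-exposed mice of PND 5, 9 with DM at 12 months, 0 at 18 months and 0 for DM in WT mice of PND 5. It kept Kif4 called at 12 months (adjusted p = 6.8e-06 with DM and 8.1e-05 with oil). Leaving out 1 library gave 2 to 4 with DM and 1 to 2 with oil at 12 months, 0 at 18 months and 0 to 2 for DM in WT mice of PND 5. The causes were not tested. Differences near the floor of the scale could not be resolved, and the depth of each library is not in the tables used.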
